A study of Rattus norvegicus with 21 samples.

Results

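The genes described here are 10 genes that neurons switch on when they fire: the transcription factors Egr1, Egr2, Egr3 and Egr4, the nuclear receptors Nr4a1, Nr4a2 and Nr4a3, the transcription factor Npas4, and the synaptic proteins Arc and Homer1. They were chosen by symbol, as all probes annotated to those genes. Of the 10, 9 had a probe, 1 each, among 13317 named genes, and 6 were bright enough to be tested among 8211 tested features: Egr1, Egr2, Egr4, Nr4a2, Nr4a3 and Arc. No probe was matched to Homer1 by symbol, so it was not analysed here.

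Immediate early genes are transcribed soon after synaptic activity and calcium entry, from factors that are already in the cell. Serum response factor, which binds the CArG box, and CREB, which binds the cAMP response element (CRE), carry the signal to their promoters. The Egr and Nr4a proteins and Npas4 then act on later genes, while Arc takes AMPA receptors off the synapse and the short form of Homer1 loosens the scaffold that holds metabotropic glutamate receptors. In the dentate gyrus these genes are low in most granule cells at rest and are strongly switched on by seizures.

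Gene expression was measured in areas of the dentate gyrus of Wistar rats, with total RNA hybridised on Illumina rat beadchips. All rats had been injected with pilocarpine, a muscarinic agonist that causes status epilepticus and later epilepsy, and slices of their hippocampus had been recorded in vitro before RNA was taken. Areas that generated fast ripples (FR), very fast field oscillations, gave 10 arrays, and areas that did not (nonFR) gave 11. The arrays came from 11 slices of 6 animals, labelled P91, B9, B1, B3, B13 and B10, and 10 slices gave both areas. The FR group held 2 slices each of P91, B9, B3 and B10 and 1 each of B1 and B13, and the nonFR group held the same slices and 1 more of B9. Age and sex are not in the labels, and no untreated rat was compared. Transcripts made in the animal and those made in the recorded slice cannot be told apart.

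Mean signal lay between 84.2 and 369.8 intensity units per array, and between 5648 and 9525 probes were detected, that is, had a detection p below 0.01 against the array's negative controls. The number of arrays limits the precision. The granule cell markers Calb1 and C1ql2 were bright in both groups, with means of 10.14 and 9.38 in FR areas and of 10.73 and 9.93 in nonFR areas on the log2 scale, while the granule cell factor Prox1 was dim (4.90 and 5.22). The mean of the 6 tested granule cell markers fell below 7 on 4 arrays: the FR areas of P91 S1 (6.22) and B13 S1 (6.10) and both areas of B10 S1 (5.63 and 5.94). The B10 S1 areas also had the highest mean of the pyramidal and mossy cell markers, 6.77 on each array, against 5.05 to 6.27 on the other arrays. In such tissue blocks, fewer cells of a type and less RNA per cell cannot be told apart.

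The 250 bases before an annotated transcription start are shown for response elements near it. RefSeq promoter entries of build GRCr8, with 1 start for each gene, were matched for 7 of the 10 genes, all but Arc, Egr3 and Nr4a3. For Egr2, Nr4a1, Nr4a2 and Npas4 the start used lies inside the annotated gene, and other starts were not searched. The CArG box was searched on both strands by its name, and a match is shown as 10 capitals in a row. The CRE core, TGACG or CGTCA, was searched on both strands, and a match is shown as 5 capitals. The 4 promoters printed belong to tested members and are written 5′ to 3′ on the gene's strand, from chr18:26736828-26737077 (plus strand, Egr1), chr20:21054442-21054691 (minus strand, Egr2), chr4:119607818-119608067 (minus strand, Egr4) and chr3:62104888-62105137 (minus strand, Nr4a2).
Egr1: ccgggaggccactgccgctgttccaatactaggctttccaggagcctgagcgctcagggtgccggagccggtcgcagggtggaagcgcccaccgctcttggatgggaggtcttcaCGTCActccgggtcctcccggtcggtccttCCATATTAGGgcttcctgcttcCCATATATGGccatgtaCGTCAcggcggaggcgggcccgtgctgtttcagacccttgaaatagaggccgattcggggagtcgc
Egr2: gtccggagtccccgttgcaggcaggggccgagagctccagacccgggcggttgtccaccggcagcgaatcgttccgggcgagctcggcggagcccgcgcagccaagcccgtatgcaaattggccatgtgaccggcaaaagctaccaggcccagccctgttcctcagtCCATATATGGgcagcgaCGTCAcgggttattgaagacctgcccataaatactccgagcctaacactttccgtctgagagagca
Egr4: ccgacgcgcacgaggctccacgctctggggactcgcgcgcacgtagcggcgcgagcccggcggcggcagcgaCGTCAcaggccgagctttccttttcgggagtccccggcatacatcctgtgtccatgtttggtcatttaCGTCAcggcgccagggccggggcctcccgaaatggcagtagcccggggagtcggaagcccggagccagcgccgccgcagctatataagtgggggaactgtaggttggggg
Nr4a2: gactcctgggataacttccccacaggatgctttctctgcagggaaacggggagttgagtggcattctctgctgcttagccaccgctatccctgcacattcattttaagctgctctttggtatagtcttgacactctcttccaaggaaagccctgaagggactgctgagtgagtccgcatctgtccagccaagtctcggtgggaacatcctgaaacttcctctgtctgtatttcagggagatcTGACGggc

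A CArG box was found in 2 of the 7 promoters, those of Egr1 (2 matches) and Egr2 (1 match), and in 1.5% of 33469 rat promoter windows of the same length. In both of these windows a CArG box lay 83 to 74 bases before the start, with a CRE core 66 to 62 bases before it. The CRE core was found in 5 of the 7, with 2 matches each in Egr1 and Egr4, 1 each in Egr2 and Nr4a2 and 4 in Nr4a1, and in 18.2% of all windows. The full CRE (TGACGTCA), the Egr site (GCGTGGGCG) and the Nr4a element NBRE (AAAGGTCA) were found in 0 of the 7, and in 1.59%, 0.478% and 1.24% of all windows. These matches are letters in a window and no measure of binding, and a missing match speaks only of these 250 bases before that start.

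Levels are given as log2 normalized signal, after background correction and quantile normalization with an offset of 16, which understates differences of dim probes. The median tested feature stood at 6.93. Probes differ in brightness for reasons of their own, so a gene is compared with itself across arrays and never with another gene.

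Egr1, a zinc-finger factor that is the most used marker of neuronal activation of its family, was detected on all 21 arrays. Its level ran from 9.53 through a median of 11.00 to 11.42 in FR areas and from 10.05 through 10.79 to 11.60 in nonFR areas. Egr2, a relative needed for myelinating Schwann cells and also induced in neurons, was detected on all arrays too. It ran from 8.67 through 9.41 to 10.27 in FR areas and from 8.87 through 9.24 to 10.22 in nonFR areas. Egr4, a neuronal member of the family, varied more between arrays than the other 2 (SD 0.69 over the arrays of complete slices, against 0.51 for Egr1 and 0.45 for Egr2). It ran from 6.31 through 7.61 to 9.05 in FR areas and from 6.29 through 7.61 to 8.97 in nonFR areas. For each of the 3 genes the areas overlapped over nearly the whole range.

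Egr3, which is needed for muscle spindles and acts downstream of activity in neurons, lay near background. Its deposited signal ran from 33.0 to 68.1 intensity units, and it was detected on 7 of 21 arrays, 4 of FR and 3 of nonFR areas. Because each array has its own controls, a signal of 43.7 was detected on the FR array of B3 S1, while 61.7 on the nonFR array of the same slice was not. Egr3 was therefore left out of the tests.

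The Nr4a receptors are orphan nuclear receptors whose activity is set by how much protein is made. Nr4a1 was detected on 3 of 21 arrays, the nonFR areas of P91 S3, B9 S2 and B1 S1, where its signals of 72.0, 67.0 and 63.9 were among the 4 highest of its 21, which ran down to 30.6. On 0 of 10 FR arrays was it detected. Nr4a2, also known for its part in dopamine neurons, was detected on 19 arrays. Its level ran from 4.84 through 6.32 to 7.02 in FR areas and from 5.27 through 6.36 to 7.32 in nonFR areas. Nr4a3 was detected on 20 arrays, all but the FR area of B10 S2. It ran from 4.74 through 6.11 to 7.63 in FR areas and from 4.66 through 6.36 to 7.15 in nonFR areas. On 9 arrays the detection p of the Nr4a3 probe was not a step that the array's controls could give, so how it was called detected there is unknown.

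Arc, which enters dendrites as an mRNA and is translated near active synapses, was detected on all 21 arrays. Its level ran from 8.43 through 9.46 to 11.27 in FR areas and from 8.75 through 9.49 to 11.26 in nonFR areas. Npas4, a factor that responds to calcium and builds inhibitory synapses on active neurons, was detected on 0 of 21 arrays, with a lowest detection p of 0.043 and signals from 31.3 to 56.2. No fold is given for it. That the probe was not above background does not show that the transcript was absent.

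**Figure D1:**
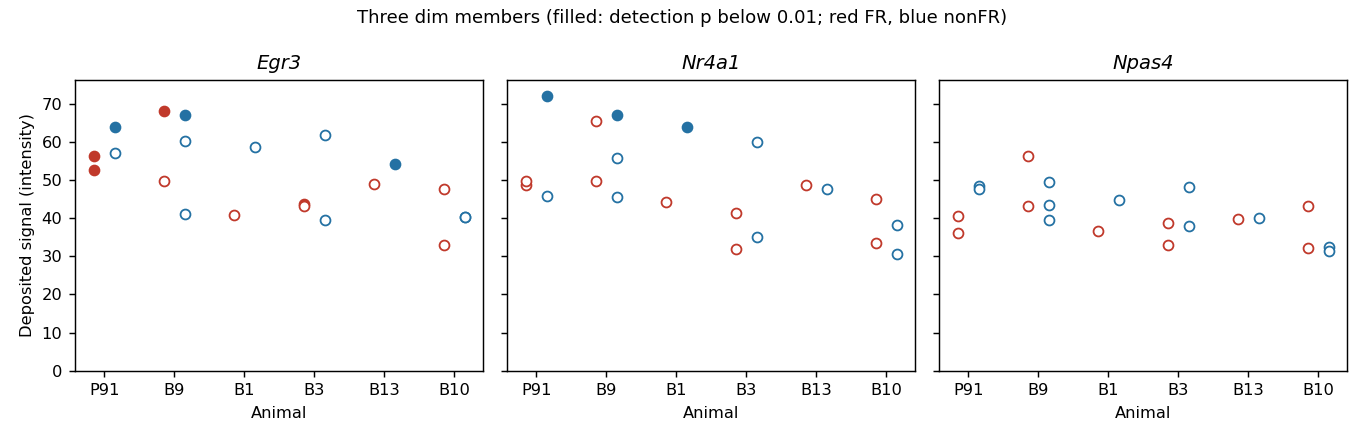
Deposited signal in intensity units of Egr3, Nr4a1 and Npas4 on each of the 21 arrays, by animal, with FR areas in red and nonFR areas in blue and filled points where the detection p was below 0.01. Egr3 was detected on 7 arrays, Nr4a1 on 3, all nonFR, and Npas4 on 0.

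The main question of the series is whether areas that generate fast ripples differ from areas that do not. The 6 tested members did not pass the test in either direction (limma, animal as a block, Benjamini-Hochberg over 8211 features, threshold 0.05), beside 0 of all 8211 features (0%). At an unadjusted p below 0.05 stood 45 features (0.548%), 26 higher (0.317%) and 19 lower (0.231%), and 0 of the 6 members.

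Among the transcription factors, Egr1 was 0.099 log2 higher in FR areas (SE 0.17, 95% interval -0.26 to 0.46), with means of 10.85 ± 0.58 (SD, n = 10) and 10.70 ± 0.48 (SD, n = 11). It was higher in 5 of 6 animals, as were 624 of 8211 features (7.6%) in 5 or more animals. Over the animal means an exact permutation of signs (two-sided) gave p = 0.094, where the smallest possible p is 0.031. Egr2 differed by -0.0050 (SE 0.19, interval -0.40 to 0.39) and Egr4 by -0.045 (SE 0.29, interval -0.65 to 0.56). The interval of Egr4 was thus the widest of the 3.

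Nr4a2 was 0.063 log2 lower in FR areas (SE 0.19, interval -0.46 to 0.33), and lower in 5 of 6 animals, as were 684 of 8211 features (8.33%) in 5 or more animals, but in 5 of 10 slices. Nr4a3 was 0.018 higher (SE 0.25, interval -0.50 to 0.54). Arc was 0.11 lower (SE 0.24, interval -0.60 to 0.39), and it was higher in 3 animals and lower in 3. The adjusted p of each of the 6 was 0.9999, and the exact permutation p of the other 5 lay between 0.56 and 0.84. These intervals describe what 6 animals can resolve and do not show that the areas are alike.

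Within single slices the differences were larger than the averages and ran both ways. For Egr1 the FR area was above the nonFR area in 6 of 6 S1 slices, by 0.45 log2 in P91, 0.89 in B9, 0.011 in B1, 0.63 in B3, 0.24 in B13 and 0.65 in B10. It was below in 4 of 4 later slices, by 0.55 in P91 S3, 0.78 in B9 S3, 0.069 in B3 S2 and 0.50 in B10 S2. S1 slices alone gave 0.48 (SE 0.20, unadjusted p = 0.034 and adjusted p = 0.99999 with limma). Such a split, of 1 sign in all S1 slices and the other in all later slices, was found for 7 of 8211 features (0.0853%) and for Egr1 alone among the 6 members. For Arc the FR area of B10 S2 was 1.12 log2 above the nonFR area and that of B3 S1 was 0.99 above, while those of B13 S1, B9 S1 and B3 S2 were 1.43, 1.32 and 0.99 below. The 2 slices of B3 were therefore opposite in sign. Egr4 ran from -1.42 in B1 S1 to 1.49 in B10 S2, and Nr4a2 from -0.86 in B3 S2 to 1.29 in B10 S2. The difference of Nr4a3 in B10 S2, -1.94, lay far below its next lowest, -0.35 in B3 S2. Without the 4 arrays low in granule cell markers the difference turned sign for Arc (0.13), Egr4 (0.085), Nr4a2 (0.073), Nr4a3 (-0.12) and Egr1 (-0.0029), with an adjusted p of 0.9993 for each.

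**Figure D2:**
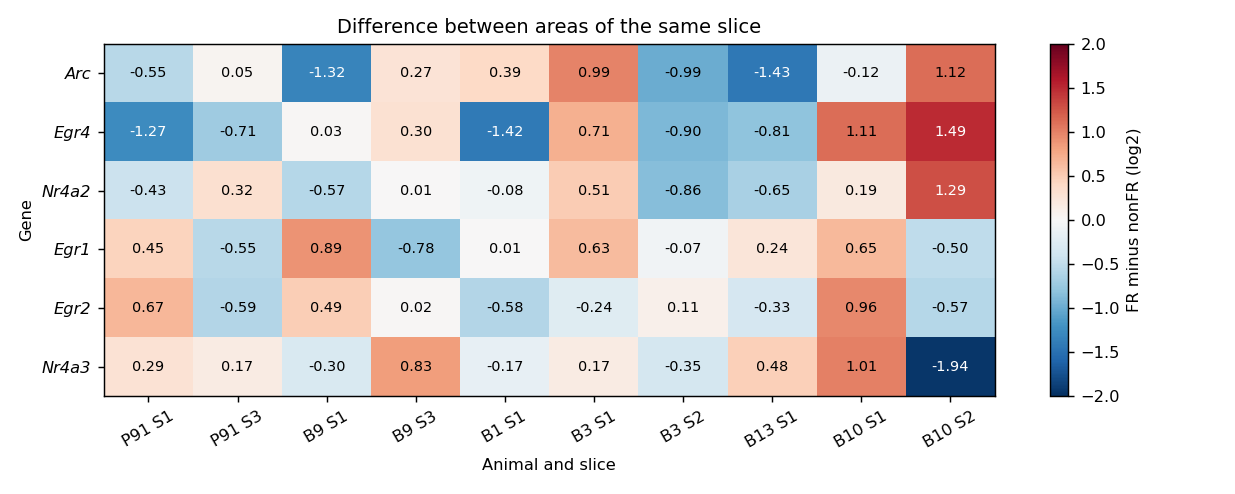
FR minus nonFR difference in log2 normalized signal of the 6 tested members (rows) in the 10 slices with both areas (columns, animal and slice number), red where the FR area was higher and blue where it was lower. Each gene has both signs, Arc from -1.43 to 1.12 and Nr4a3 from -1.94 to 1.01.

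The later minus S1 change in the difference between areas was tested after this split had been seen, in a fit with the slice as a random block. For Egr1 it was -0.91 log2 (SE 0.28, 95% interval -1.51 to -0.31, unadjusted p = 0.0051), and it did not pass after adjustment (adjusted p = 0.96), beside 0 of 8211 features (0%) and 280 (3.41%) at an unadjusted p below 0.05. The other 5 members had unadjusted p from 0.24 to 0.47. In simulated data with independent noise on each array this fit recovered 10% of genes changed by 1 log2 and 70% of those changed by 2.

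A test of whether the difference between areas itself varied between animals called 0 of 8211 features (0%), with 277 (3.37%) at an unadjusted p below 0.05. Egr4 was the only member among these (limma moderated F = 3.17, unadjusted p = 0.041, adjusted p = 0.9998). On simulated arrays, where only the FR areas of P91 were changed by 2 log2, it recovered 0 of 100 genes, so it says little in these 21 arrays.

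The animals, in contrast, differed. The F-test of the animal terms, with area as a term and slice as a random block, called 4 of the 6 tested members, Arc, Nr4a2, Nr4a3 and Egr1, beside 1670 of 8211 features (20.3%). Arrays of an animal are not independent animals, so each call says that these 6 rats differed by more than slices and areas of a rat did. All 4 calls held without the 4 arrays low in granule cell markers (adjusted p from 0.0015 to 0.020 with limma). That fit called 3424 features, more than the 1670 of all arrays. In FR areas alone or in nonFR areas alone 0 of the 4 passed, but few features passed there at all, 5 in FR areas alone.

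Arc read 8.62, 9.17, 9.17 and 9.11 in P91, 8.43, 9.74, 8.75, 9.76 and 9.49 in B9, and 8.96, 9.09, 10.09 and 8.97 in B10. In B1 it read 11.20 and 10.81, in B3 11.27, 10.28, 10.27 and 11.26, and in B13 9.03 and 10.46. All arrays of B1 and B3 lay above all arrays of P91, B9 and B10, and B13 had 1 array in each range. Such gaps between animals, for Arc and for the genes below, were described after the values were seen. How many of all features separate animals in this way was not counted. The mean of B1, 11.00 ± 0.28 (SD of 2 arrays), was 3.97-fold that of P91, 9.02 ± 0.27 (SD of 4 arrays), on this scale (F = 8.22, adjusted p = 0.0071 with limma). Without B3 the adjusted p was 0.057. The 2 animals high in Arc also had the highest mean of the granule cell markers (8.05 in B1 and 7.87 in B3). B9, low in Arc, followed at 7.72 and P91 stood at 7.07, and the part of these markers was not tested.

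Nr4a2 read 4.84, 5.41, 5.68, 5.28 and 5.27 in B9, and 6.15, 5.96, 6.75 and 5.46 in B10. In P91 it read 5.92, 6.36, 7.02 and 6.70, in B1 6.34 and 6.42, in B3 6.88, 6.37, 6.29 and 7.15, and in B13 6.67 and 7.32. The arrays of B9 lay below all arrays of P91, B1, B3 and B13, and the other animals overlapped their neighbours. The FR area of B9 S1 and the nonFR area of B10 S2 were not detected, so B9 was measured above background on 4 of its 5 arrays. On this scale B13 was 3.24-fold above B9 (6.99 and 5.30, F = 7.41, adjusted p = 0.0096 with limma), and without B9 the adjusted p was 0.38.

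Nr4a3 read 4.90, 5.20, 5.05, 5.49 and 4.66 in B9, and 5.29, 5.003, 6.02 and 5.85 in P91. It read 6.69 and 6.85 in B1, 6.53, 6.36, 6.21 and 6.56 in B3, 7.63 and 7.15 in B13, and 7.41, 6.40, 4.74 and 6.68 in B10. The order B13, B1, B3 had no overlap between neighbours, whereas B10 spread over nearly the whole range. On this scale B13 was 5.03-fold above B9 (7.39 and 5.06, F = 7.26, adjusted p = 0.010 with limma), the widest gap among the 6 members, and without B9 the adjusted p was 0.14. The B9 side of this fold lay near background. On the nonFR array of B9 S3 the Nr4a3 signal, 43.9, was below that of Nr4a1, 45.7, which was not detected there. On that array and on both FR arrays of B9 the detection p of Nr4a3 was off the steps of the controls.

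Egr1 read 11.34, 10.89, 11.05 and 11.60 in P91, 11.14 and 11.13 in B1, 11.42, 10.79, 10.94 and 11.01 in B3, and 11.10 and 10.87 in B13. It read 10.91, 10.26, 10.16 and 10.66 in B10 and 10.94, 10.05, 10.14, 9.53 and 10.31 in B9. P91, B1, B3 and B13 thus stood close together and the other 2 stood lower, with overlap between all neighbours. This order is of normalized levels. The median deposited signal of Egr1 was 1710 in B9, 1381 in B3 and 541 in B10. The animals differed in array brightness, with a mean signal of 263.9 in B9 and 103.9 in B10, and its part was not tested. P91 was 2.04-fold above B9 (11.22 and 10.19, F = 4.53, adjusted p = 0.040 with limma). Without P91, B9 or B3 the adjusted p was 0.088, 0.23 or 0.085.

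Egr2 (adjusted p = 0.33) and Egr4 (adjusted p = 0.26) did not pass, although their animal means spanned 0.89 and 1.10 log2. B9 was the lowest animal for 5 of the 6 members, all but Arc, and B13 was the highest for Egr2, Nr4a2 and Nr4a3. B13 has 2 arrays of 1 slice, and how many of all features had these extremes was not counted. Genes of other lists had them too. The highest mean of the microglia and macrophage markers was in P91 (8.01) and the lowest in B10 (6.22). The part of tissue makeup in the differences between animals was not tested.

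**Figure D3:**
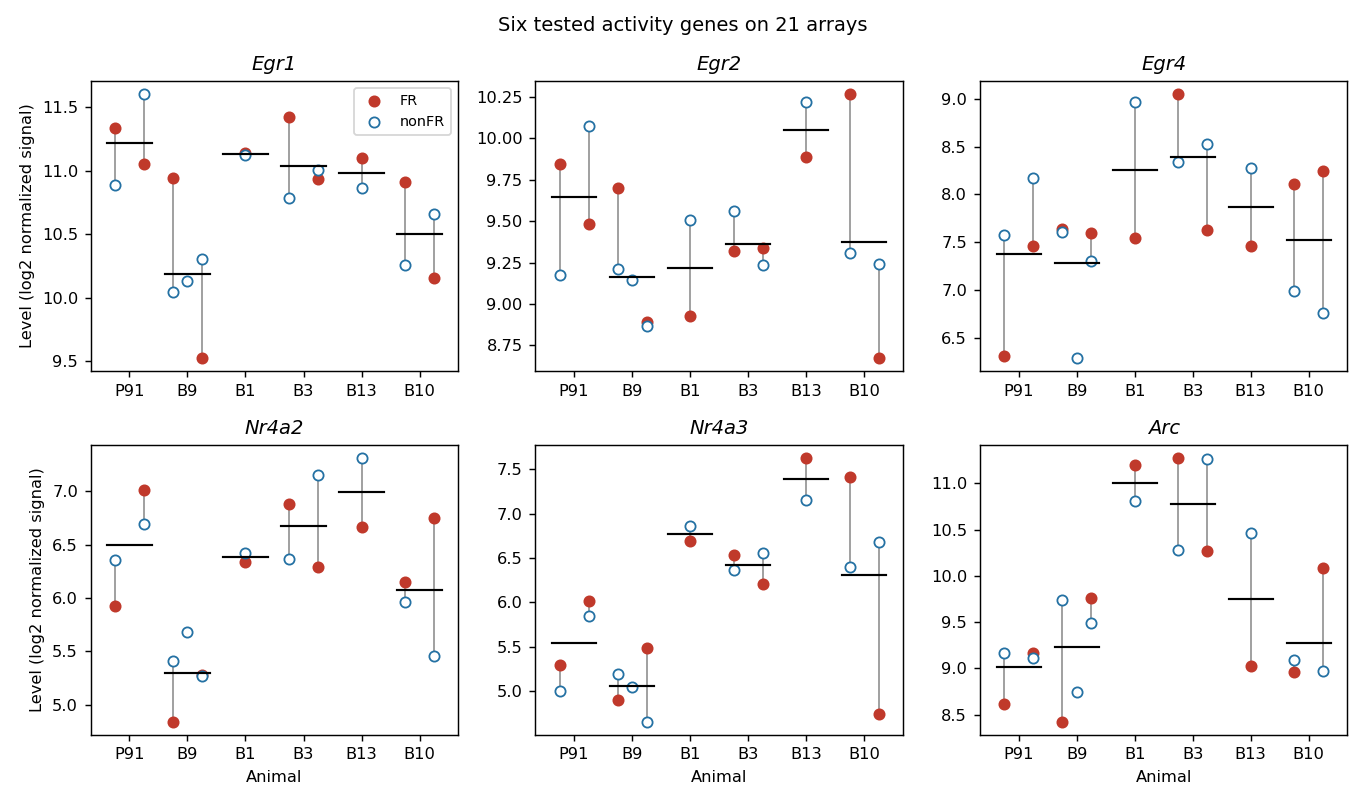
Level in log2 normalized signal of the 6 tested members on the 21 arrays, by animal. Filled red points are FR areas and open blue points nonFR areas, grey lines join both areas of a slice, and black bars are animal means. B9 is the lowest animal for every gene shown but Arc, whose means run from 9.02 in P91 to 11.00 in B1.

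The share of a gene's variance that lay between animals is another view of the same values. Over the 20 arrays of complete slices it was 73.3% for Nr4a2, 71.5% for Arc, 67.1% for Nr4a3, 60.6% for Egr1, 34.9% for Egr2 and 33.9% for Egr4, beside a median of 42.4% over all features. Differences between both areas of a slice took 53.1% of the variance of Egr4, 36.1% of that of Egr2 and 30.7% of that of Egr1. For the called genes Arc, Nr4a2 and Nr4a3 that share was 24.5%, 20.7% and 19.7%, beside a median of 37.4%. The degrees of freedom were 5 between animals, 4 between slices of an animal and 10 between areas of a slice. Values without structure would therefore put 26.3% between animals and most of the rest between areas. A large share between areas, as for Egr4, is thus not by itself a difference between areas.

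Slice numbers are in the labels, but what they order by is not. Between later-numbered slices (9 arrays) and S1 slices (12 arrays), with the animal as a block, 0 of the 6 members and 0 of 8211 features (0%) passed, with 529 features (6.44%), 240 higher (2.92%) and 289 lower (3.52%), and 0 members at an unadjusted p below 0.05. Nr4a2 was 0.28 log2 higher in later slices (SE 0.20, adjusted p = 0.78 with limma) and higher in 4 of the 4 animals with more than 1 slice, as were 463 features (5.64%). Egr2 was 0.31 lower (SE 0.20, adjusted p = 0.77) and lower in 3 of the 4. Arc was 0.25 higher (SE 0.26), and Egr1, Egr4 and Nr4a3 were 0.16, 0.11 and 0.11 lower (SE 0.18, 0.32 and 0.27). Beside this, the mean of the granule cell markers was 7.56 in later and 7.21 in S1 slices (6 of 6 higher). In later slices 10 of 10 interneuron markers, 10 of 10 microglia and macrophage markers, 9 of 10 oligodendrocyte markers and 6 of 7 endothelial, pericyte and meningeal markers were lower, with medians of -0.33, -0.25, -0.25 and -0.31 log2. None of these markers passed, and their part was not tested.

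How far the members moved together was described by Pearson correlations across the 21 arrays, which share animals and slices, so no p is given. The median over the 15 pairs of tested members was 0.43. Over all pairs of tested features the median was about 0 and 1 pair in 10 lay above 0.47. Arc and Egr4 were the closest pair (r = 0.70, Spearman 0.67), and over the 6 animal means they stood at r = 0.96 (Spearman 0.89). Arc and Egr2 were the only pair below 0 (r = -0.28, Spearman -0.26).

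After removal of animal means and of the area difference the median fell to 0.11, and the pairs divided. Over all pairs of tested features the median was again about 0, with 1 pair in 10 below -0.47 and 1 in 10 above 0.48. Among Arc, Egr4 and Nr4a2 r ran from 0.50 to 0.68, and among Egr1, Egr2 and Nr4a3 from 0.28 to 0.65. Between these sets it ran from -0.47 to 0.19, with 2 of the 9 pairs above 0. The division was chosen after the values were seen and is a description. For Egr2 and Nr4a3, r = 0.60 came with a Spearman correlation of 0.21. The FR minus nonFR differences of Arc and Nr4a2 over the 10 slices stood at r = 0.89, the highest of the member pairs, and those of Arc and Egr1 at r = -0.39. The differences of Arc, Egr4 and Nr4a2 had the same sign in 6 of the 10 slices and those of Egr1, Egr2 and Nr4a3 in 3 of the 10. What other features give in r or in shared signs over these slices was not counted, so neither is read as a result.

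**Figure D4:**
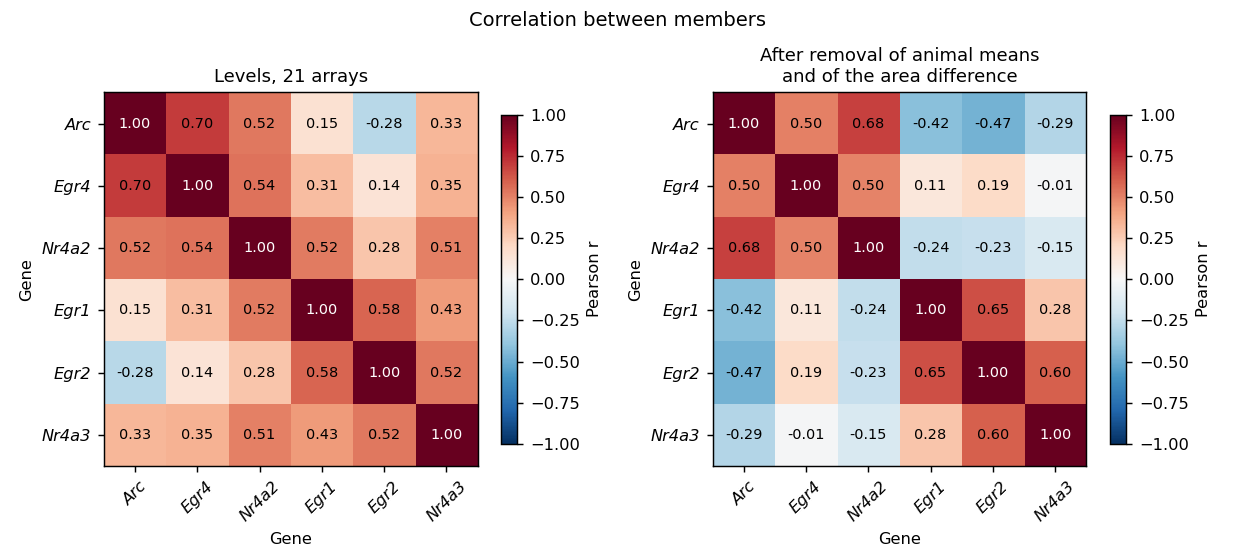
Pearson correlation between the 6 tested members over 21 arrays, on levels (left) and after removal of animal means and of the area difference (right), from -1 (blue) to 1 (red). Arc and Egr4 reach 0.70 on levels, and on the right 2 of the 9 pairs between the upper 3 and the lower 3 genes are above 0.

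For each tested member the 3 named genes with the highest Pearson correlation over the 21 arrays were taken, and none of them was another member. They were picked among 6347 named features, so their r is high by choice, and what chance gives was not tested. Arc was followed most closely by Btbd3 (r = 0.82), the GABA-A receptor subunit gene Gabrb2 (0.81) and Rfx3 (0.77), a ciliary transcription factor and also a granule cell marker of the list used here. Egr1 was followed by the small GTPase gene Rhob (0.85), the kinase gene Jak1 (0.83) and Rela (0.80), a subunit of NF-kappaB. Egr2 was followed by the lipid kinase gene Pi4k2b (0.83), Slc35b4 (0.79) and Dpysl5 (0.76). Pi4k2b and Gabrb2 were dim, with mean levels of 4.85 and 5.10.

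Egr4 was followed by Zrsr2-ps1 (0.82), Rbm11 (0.76) and Prepl (0.73), with Arc as the 7th in its ranking. Nr4a2 was followed by the protocadherin gene Pcdh19 (0.76), the deadenylase gene Noct (0.74) and Dse (0.73). Rbm11 and Dse were dim, with mean levels of 5.13 and 5.01. Nr4a3 had the closest followers, with Serpini1 (0.94), which encodes the neuronal protease inhibitor neuroserpin, Aard (0.88) and the transcription factor gene Mycn (0.87). The likeness of Nr4a3 and Serpini1 was also 0.94 in the authors' processed values.

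Lists of genes around the members, chosen with earlier results of these data known, were counted in the same fits. Between FR and nonFR areas 0 genes of any list passed. Among the upstream factors and kinases 10 of 32 genes were tested, 5 higher and 5 lower in FR areas (median -0.018 log2, beside 0.0059 over all features). Those with the lowest p were Camk4 (0.32, SE 0.22), a calcium-dependent kinase of the nucleus, Map2k1 (-0.31, SE 0.25), the kinase that activates ERK, and Nfatc4 (0.17, SE 0.21). Between animals 2 of the 10 passed (20%, near the background of 20.3%): Mrtfa, a coactivator of serum response factor (adjusted p = 0.0076 with limma), and Nfatc4 (adjusted p = 0.017). Mrtfa was highest in B9 (9.38) and lowest in B13 (6.93), and Nfatc4 was highest in B9 (6.27) and lowest in B10 (4.64).

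Of 7 partners of the Egr, Nr4a and Npas4 proteins 2 were tested, both retinoid X receptor genes, with which Nr4a1 and Nr4a2 form dimers. Rxrb (-0.13 log2 in FR areas, SE 0.18) differed between animals (adjusted p = 0.011 with limma) and was highest in B9 (10.03) and lowest in B13 (8.48). Rxrg (0.21, SE 0.37) did not pass (adjusted p = 0.083). Mrtfa and Rxrb were thus highest in B9 and lowest in B13, where Nr4a2 and Nr4a3 had the opposite order. How many of all features had either order was not counted.

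Of the 24 synaptic partners of Arc and Homer1, 9 were tested, 4 higher and 5 lower in FR areas (median -0.037 log2). Cacng2, which encodes stargazin, an auxiliary protein of AMPA receptors, stood at 0.49 (SE 0.40), Wasf1, an actin regulator, at -0.19 (SE 0.23) and Homer2, a scaffold relative of Homer1, at 0.21 (SE 0.26). Between animals 2 of the 9 passed (22.2%, near the background of 20.3%): Itpr1, the calcium release channel that Homer proteins bind (adjusted p = 0.011 with limma), and Sh3gl3, an endophilin that Arc binds in endocytosis (adjusted p = 0.014). Itpr1 and Sh3gl3 were both highest in B13 (10.73 and 7.68) and lowest in P91 (8.74 and 5.70).

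The Fos and Jun genes, the other classical immediate early factors, form the AP-1 complex. Of 7 genes 3 were tested and all 3 differed between animals (limma, adjusted p = 0.0089 for Fos, 0.00059 for Junb and 0.011 for Jun), beside 20.3% of all features. Fos averaged 10.58 in P91 and 6.96 in B3, and Junb 11.96 in P91 and 9.49 in B3. Arc ran the other way between these animals, with 9.02 in P91 and 10.77 in B3, as did Egr4, Nr4a2 and Nr4a3. Egr1 (11.22 and 11.04) and Egr2 (9.64 and 9.37) were higher in P91, like Fos and Junb. How many of all features had either order was not counted. Jun was highest in B1 (10.35) and lowest in B9 (9.13). In FR areas Fos stood at 0.52 (SE 0.45), Junb at 0.11 (SE 0.20) and Jun at -0.029 (SE 0.15), with an unadjusted p of 0.26 for Fos.

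Other immediate early transcription factors had 18 of 25 genes tested, 10 higher and 8 lower in FR areas (median 0.042 log2). Between animals 7 of the 18 (38.9%) passed, beside 20.3% of all features. The lowest p in FR areas belonged to Klf2 (0.19, SE 0.21), Hes1 (0.24, SE 0.26) and the clock gene Per2 (-0.19, SE 0.22). In later slices 5 of the 18 had an unadjusted p below 0.05, beside 6.44% of all features, and none passed after adjustment (adjusted p = 0.75 with limma). Klf5 was 0.73 log2 higher, and Hes1, a Notch target, Klf2, Klf4 and Per1 were 0.85, 0.55, 0.71 and 0.74 lower (Klf4, Klf5 and Per1 were named after their values were seen). Klf2 and Klf5 were dim, with means in FR and nonFR areas of 5.08 and 4.92 for Klf2 and of 5.08 and 5.02 for Klf5. Per2 differed between animals (adjusted p = 0.012 with limma), from 8.82 in P91 to 10.85 in B1, the same extremes as Arc. How many of all features had those extremes was not counted.

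Among 39 activity-induced effector genes 24 were tested, 6 higher and 18 lower in FR areas (median -0.088 log2). Between animals 14 of the 24 (58.3%) passed, beside 20.3% of all features. Acan, the core of the perineuronal net proteoglycan aggrecan, was 0.24 log2 lower in FR areas (SE 0.12, unadjusted p = 0.065 with limma). It was lower in 6 of 6 animals, and 104 of 8211 features (1.27%) had 1 sign in all 6. Its probe was dim, with means of 5.31 in FR and 5.53 in nonFR areas. Nptx2, which gathers AMPA receptors at synapses on interneurons, was 0.70 lower (SE 0.43) and also lower in 5 of 6 animals. Plat, tissue plasminogen activator, was 0.38 higher (SE 0.27). Beside these, the FR areas had a median of -0.37 over the 6 tested granule cell markers (1 higher, 5 lower) and of 0.34 over the 10 oligodendrocyte markers (10 higher). It was 0.25 over the 10 microglia and macrophage markers (9 higher, 1 lower) and 0.14 over the 7 endothelial, pericyte and meningeal markers (7 higher). None of these markers passed, and their part was not tested.

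Inducible feedback inhibitors, which switch the kinases and transcripts off again, had 12 of 17 genes tested, 6 higher and 6 lower in FR areas (median -0.033 log2). Between animals 5 of the 12 (41.7%) passed, beside 20.3% of all features. Sik1, a kinase that holds back CREB coactivators, stood at -0.52 in FR areas (SE 0.46) and differed between animals (adjusted p = 0.030 with limma). Zfp36l1, which promotes the decay of short-lived mRNAs, stood at -0.42 (SE 0.45) and Nfkbia, the inhibitor of NF-kappaB, at -0.27 (SE 0.30), and neither passed between animals (adjusted p = 0.20 and 0.11). All 3 were lowest in B9 and highest in B13, Sik1 from 7.95 to 11.37, the same extremes as Egr2, Nr4a2 and Nr4a3. Other genes of this list and some cell type markers had these extremes too, and the share over all features was not counted.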

How the data were processed

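Per the file headers, the deposited table holds for each probe and array an average signal and a detection p-value, and these signals are intensities on a linear scale, with means that differ between arrays. A second deposited table holds the authors' processed values on a scale like log2, for which the submitters' processing notes name lumi 2.2. Its log base and background step are not given in the sources used here, and it served only as an alternative. Of 22523 probes, 720 were 0 in every column and were dropped, and 0 sample columns went unused.

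With limma 3.58.1 in R 4.3.3, intensities were background-corrected (normexp from negative controls estimated through the detection p), raised by an offset of 16, brought to common quantiles and expressed as log2. The control estimate left out 645 probes whose detection p was off the steps an array's controls allow (tolerance 0.002), which inflate the control SD from 3.03 to 7.08 up to 26.4 to 179. This step was added after values of the plain method were seen, and the plain method stands among the alternatives. Tests used probes detected (p below 0.01) on 10 or more arrays, as 8211 features with 1 probe for each symbol (the brightest), by lmFit and eBayes, two-sided, with Benjamini-Hochberg adjustment. No chip or position entered a fit, as the labels name none.

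Areas of a slice and an animal are paired by the labels: deviations correlated on average by 0.33 within slices (10 pairs), 0.33 between slices of an animal and -0.11 between animals. P-values over arrays of the same rats measure spread within and between 6 rats. The members and all gene lists were chosen with earlier results of these data known. The genes named are the members, the 3 genes most like each tested member, and from each list up to 3 genes of lowest p between areas and, for the upstream and partner lists, 2 of lowest p between animals. In simulated data, changes of 1 log2 between areas were recovered for 73% of genes, between animals for 39% and between slices for 71%. Those of 2 log2 were recovered for 98%, 89% and 97%. Between animals only B9 was changed. The simulated noise was independent between arrays, with nothing shared by animal, slice or gene, so these percentages may not hold for the real arrays. Between areas 0.548% of real features had an unadjusted p below 0.05, fewer than a threshold of 0.05 gives where nothing differs. The test of the later minus S1 change in the area difference was added after the slice differences were seen.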

Additional observations from a re-analysis of the deposited data

Results flagged for a closer look

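Of 36 sets of member values examined for a lone extreme value, 2 held one by Dixon's criterion, where chance gives 1.8. The level of Nr4a1 on the FR array of B3 S1, 4.301, was the lowest of the 10 FR arrays, and the next was 4.59, although Nr4a1 was not detected on any of them. The FR minus nonFR difference of Nr4a3 in B10 S2, -1.94, was the lowest of the 10 slices, and the next was -0.35. The FR area of that slice is the array on which the Nr4a3 probe was not detected, by a detection p that was off the steps of the controls. A further result stood out because the groups opposed each other: Egr1 was higher in FR areas in 6 of 6 S1 slices and lower in 4 of 4 later slices. The change between these slices, -0.91 log2 (SE 0.28), had an adjusted p of 0.96 with limma.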

How the results depend on the processing

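FR minus nonFR differences called 0 features in each of the 21 alternatives tried, and no member passed in any. Their signs were not stable, and the cause was not tested. Beside the values without the 4 arrays low in granule cell markers (Egr1 -0.0029, Egr4 0.085, Nr4a2 0.073, Nr4a3 -0.12 and Arc 0.13 log2, an alternative chosen after seeing the data), array weights gave 0.0037 for Egr4 and 0.0051 for Arc. With no replicate block Egr2 stood at 0.020 and Nr4a2 at 0.024, and Egr2 stood at 0.0051 with the animal as a random replicate block and at 0.16 in S1 slices alone with the animal as replicate block, where Egr1 stood at 0.48. The slice as replicate block changed no call. Leaving out each animal in turn gave -0.073 to 0.056 for Egr2, -0.37 to 0.18 for Egr4, -0.25 to 0.037 for Nr4a2, -0.043 to 0.13 for Nr4a3 and -0.25 to 0.034 for Arc.

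The count of features that differed between animals, 1670, became 943 with detection required on all 21 arrays (4550 tested), 758 over slice means, 5 in FR areas alone, 11 in nonFR areas alone, 3424 without the 4 arrays low in granule cell markers and 3000 with array weights. Leaving out each animal gave 499 (without B9) to 2598 (without B10). Egr2 and Egr4 passed in no alternative, and Arc, Nr4a2, Nr4a3 and Egr1 failed in 3 of 20, 3 of 19, 3 of 19 and 7 of 20, among them FR areas alone and nonFR areas alone for each of the 4, where 10 and 11 arrays were fitted.

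Later and S1 slices gave 1 feature without a detection filter and 1 with array weights. Signs turned for Nr4a3 without the 4 arrays (0.17), Arc with array weights (-0.11) and Egr4 without the array of fewest detected probes (0.018). Leaving out each animal gave -0.40 to 0.070 for Egr4 and -0.39 to 0.24 for Nr4a3. The test of differing FR effects gave 1 feature in the authors' processed values, 2 without a detection filter and 2 with controls estimated from all probes, and it was not run without the 4 arrays, as B13 then has no FR array. The later minus S1 change in the difference between areas called 0 features in each alternative, with Egr1 between -1.01 and -0.77 (adjusted p from 0.58 to 0.9999), and leaving out each animal gave Nr4a3 -1.06 to 0.13.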
